A study of Mus musculus with 8 samples.

Results

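The 7 genes Cd74, H2-Aa, H2-Ab1, H2-Eb1, H2-DMa, H2-DMb1 and Ciita of the MHC class II pathway were followed by symbol in the deposited expression table and by Ensembl identifier in 8 single-cell libraries of mouse 4T1 tumours. All 7 matched 1 identifier each among the 17580 gene identifiers of the library tables. The 4 groups were 37C with inhibitor, 37C without inhibitor, 4C with inhibitor and 4C without inhibitor, each with the libraries A and B. The inhibitor was actinomycin D, a blocker of transcription, at 2 nM. Every group came from Balb/c mice that had received 1000000 cells of 4T1, a mammary carcinoma line from the same strain, under the skin 10 days earlier. Tumour was digested for 1 h with a protease from Bacillus licheniformis, on a heated instrument at 37C and on an instrument without heaters at 4C, so instrument and temperature cannot be told apart. Red cells, debris and dead cells were removed from all suspensions. Each group was 1 suspension pooled from 6 tumour pieces of different mice, and A and B were aliquots of it, so that the p-values given here measure only the spread between aliquots.

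MHC class II molecules present peptides from endocytosed proteins to CD4+ T cells. They are surface dimers of an alpha and a beta chain, and dendritic cells, B cells and activated macrophages are their usual carriers. Cd74 encodes the invariant chain, which occupies the peptide groove of new dimers and guides them to endosomes, where cathepsin S and other proteases remove it. H2-Aa encodes the alpha chain and H2-Ab1 the beta chain of I-A, H2-Eb1 encodes the beta chain of I-E, and H2-DMa and H2-DMb1 encode the dimer that exchanges the last invariant-chain fragment for peptide. Ciita is the transactivator that switches these genes on. It binds no DNA itself and is held at the promoters by RFX, CREB and NF-Y, which recognise the X and Y boxes. Interferon-gamma, signalling through Jak1 and Jak2, induces Ciita in cells that otherwise lack class II, carcinoma cells among them.

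Promoter stretches of 3 members are shown because the shared boxes are the feature these genes are read through. Each stretch runs from 105 to 36 bases before the RefSeq start of its gene (GRCm38.p6), and capitals mark the X box, searched as CTAG, any 2 bases, AC, any base and GATG, and the Y box core, searched as GATTGG, on both strands. The positions are chr17:34287859-34287928 on the minus strand for H2-Aa, chr17:34305762-34305831 on the plus strand for H2-Eb1 and chr17:34153086-34153155 on the plus strand for H2-DMb1.
H2-Aa: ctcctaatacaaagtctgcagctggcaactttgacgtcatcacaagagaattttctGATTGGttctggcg
H2-Eb1: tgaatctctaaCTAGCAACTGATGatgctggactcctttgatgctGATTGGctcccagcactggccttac
H2-DMb1: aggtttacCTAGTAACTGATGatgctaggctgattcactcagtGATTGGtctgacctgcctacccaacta
The Y box core began 49 bases before the start of H2-Aa, 60 before that of H2-Eb1 and 62 before that of H2-DMb1. A second match for H2-Eb1, on the opposite strand at 35 bases before the start, lay outside the stretch shown. The X box began 94 bases before the start of H2-Eb1 and 97 before that of H2-DMb1, with no match to these letters in the H2-Aa window. Of 32851 RefSeq promoter windows of 300 bases, 16.1% held the Y box core and 0.0609% held the X box, so the first match alone is common and the second is rare. H2-DMa has 2 windows, of which 1 held a Y box core, at 199 bases before the start, and neither held the X box. Promoter windows of Cd74, H2-Ab1 and Ciita were not used here.

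In GRCm38, Cd74 lies on the plus strand of chr18:60803848-60812652 and Ciita on the plus strand of chr16:10480059-10528418. The other 5 lie on chromosome 17. H2-DMa (chr17:34119541-34139101) overlaps Brd2 on the opposite strand and Ciita overlaps Dexi on the opposite strand. The sources used here do not say whether counting used strand, so reads in the overlaps cannot be told apart. H2-DMb1 is nearly identical in sequence to H2-DMb2, and its counts are uncertain to that extent.

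The libraries held 433245 to 801510 UMIs (counted molecules) over all listed barcodes at 37C and 55698 to 186002 at 4C. The authors annotated 654 cells, 325 as tumour cells, 154 as T cells, 109 as macrophages and 66 as NK cells. Macrophages made up 92 of 433 annotated cells at 37C (21.2%) and 17 of 221 at 4C (7.69%). In library order A and B they numbered 33 and 24 at 37C with inhibitor, 18 and 17 at 37C without it, 1 and 5 at 4C with inhibitor, and 8 and 3 at 4C without it. The summed level of 12 macrophage marker genes was 275 UMIs per 10000 in annotated macrophages, against 2.06 in tumour cells, 2.06 in T cells and 2.7 in NK cells. Among listed barcodes without annotation, 105 held more than 5000 UMIs (called large barcodes here) and 22525 held fewer than 200 (called low-count barcodes). The large barcodes carried the tumour epithelial marker list at 36.1 UMIs per 10000, against 43.2 in tumour cells, where Epcam was at 0, and 0.471 in macrophages. One annotated barcode sequence occurred in more than 1 library (1 of 653 distinct ones).

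Over all libraries, macrophages held most of the class II RNA of annotated cells. Cd74 stood at 34.8 UMIs per 10000 in macrophages (95% exact interval 31.9 to 37.9), 3.55 in tumour cells (3.09 to 4.07), 0.989 in T cells (0.511 to 1.73) and 0.386 in NK cells (0.0468 to 1.40). All intervals cover counting error only. Of the 12 Cd74 UMIs in T cells, 6 came from 3 cells with a UMI of Ms4a1, which encodes the B-cell protein CD20. These 3 cells had 1 UMI of the 11 T-cell marker genes in all, which goes against their label, and their Cd74 was at 36.8 per 10000. The other 151 T cells had Cd74 at 0.501 (0.184 to 1.09), a split made after the values were seen. The cell types come from the authors' clustering of the same cells, so the order is a description with no test. Per library, Cd74 in macrophages was 28.7 and 39.0 at 37C with inhibitor, 37.8 and 48.4 at 37C without it, 78.8 and 34.0 at 4C with inhibitor, and 1.70 and 7.37 at 4C without it. The 4 libraries at 37C lay close together, and the spread at 4C rests on few cells, the highest value being that of 1 macrophage.

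Over all libraries, with most UMIs from 37C, the I-A and I-E chains showed a wider gap between macrophages and tumour cells than Cd74. H2-Aa stood at 37.2 UMIs per 10000 in macrophages (34.2 to 40.5), 1.43 in tumour cells (1.14 to 1.77), 0.659 in T cells and 0.966 in NK cells. H2-Ab1 stood at 40.3 in macrophages (37.2 to 43.7), 1.63 in tumour cells (1.32 to 1.99), 1.48 in T cells and 1.16 in NK cells. For H2-Ab1 the intervals of tumour cells, T cells (0.879 to 2.34) and NK cells (0.425 to 2.52) overlapped, so below macrophages no order can be read. H2-Eb1 stood at 25.1 in macrophages (22.6 to 27.8), 1.12 in tumour cells (0.861 to 1.42), 0.577 in T cells and 0.193 in NK cells. At 4C alone Cd74 was at 18.9 in macrophages and 5.7 in tumour cells. There H2-Aa was at 4.49 and 1.67, H2-Ab1 at 8.08 and 1.76, and H2-Eb1 at 2.69 and 1.76. The gap of H2-Aa and H2-Eb1 was thus not wider than that of Cd74 at 4C, from 5 and 3 macrophage UMIs. In macrophages at 37C, H2-Aa was at 18.1 and 42.7 with inhibitor and at 50.4 and 78.3 without it, so that every library without inhibitor lay above both with it.

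The peptide-exchange genes were lower and differed from each other. H2-DMa stood at 7.41 UMIs per 10000 in macrophages (6.09 to 8.93), 1.25 in tumour cells (0.983 to 1.58), 0.577 in T cells and 0.193 in NK cells. H2-DMb1 stood at 4.92 in macrophages (3.85 to 6.18), 0.343 in tumour cells (0.210 to 0.530), 0.0824 in T cells and 0.193 in NK cells. Macrophages supplied 57.6% of the H2-DMa UMIs of annotated cells, against 76.8% for H2-DMb1, 70.1% for Cd74 and 83.4% to 85.2% for the 3 chain genes. Among these 6, H2-DMa had the smallest macrophage share over all libraries and at 37C (65.8%), whereas at 4C H2-Eb1 had the smallest (11.5%, 3 of 26 UMIs) and H2-DMa was at 18.2%.

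Ciita was close to undetected. It gave 2 UMIs in 23980 listed barcodes, 1 in a cell annotated as a T cell at 37C without inhibitor (library B) and 1 in a low-count barcode. The annotated cell had 4 Ms4a1 UMIs and 0 UMIs of the T-cell markers. None of 109 macrophages had a Ciita UMI, which allows a share of up to 2.75% of cells with a UMI and a level of up to 0.202 per 10000. None of 325 tumour cells had one either, which allows up to 0.923% of cells. At this depth no difference of Ciita between types or groups was detectable.

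**Figure D1:**
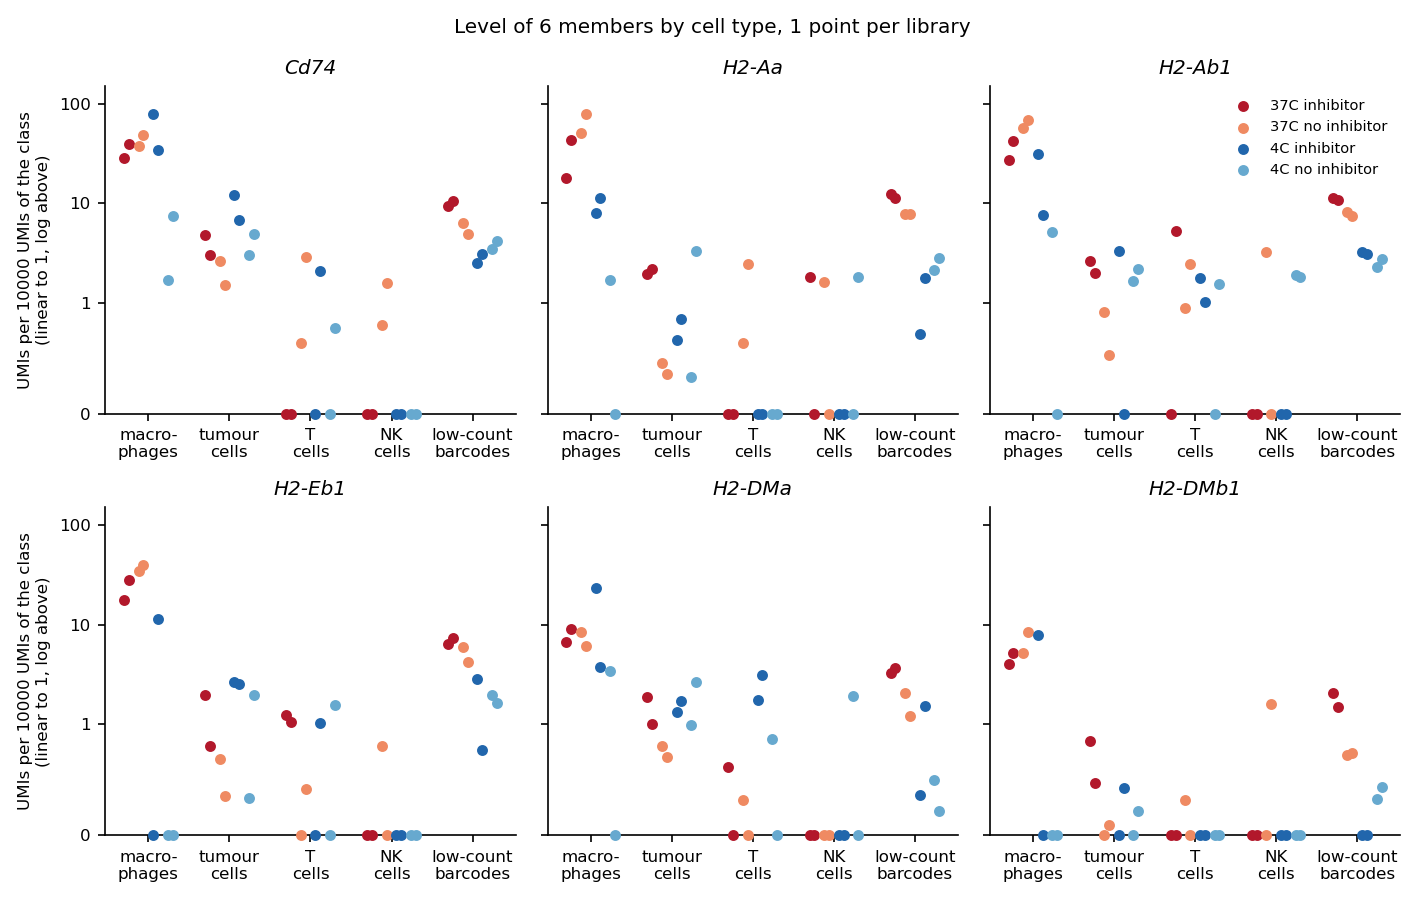
UMIs of each gene per 10000 UMIs of the class (vertical axis, linear up to 1 and logarithmic above), by annotated cell type and in low-count barcodes, with 1 point per library coloured by group. Macrophages at 37C stand above every other class for all 6 genes, as for Cd74 at 28.7 to 48.4 against 1.51 to 4.83 in tumour cells, and the 4C macrophage points rest on 1 to 8 cells each.

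At equal depth macrophages stayed highest. After each cell was thinned to 200 UMIs, 26.6% of macrophages had a Cd74 UMI (47.7% unthinned), against 7.69% of tumour cells (27.7%), 1.30% of T cells (5.19%) and 0% of NK cells (3.03%). For NK cells, 0 of 66 allows up to 5.44% by the exact interval. Median depths before thinning were 1133 UMIs in macrophages, 1359 in tumour cells, 503.5 in T cells and 599 in NK cells, and no annotated macrophage or tumour cell was left out. A UMI of any of the 5 class II genes without Cd74 and Ciita was kept in 35.8% of macrophages, 10.2% of tumour cells, 7.14% of T cells and 4.55% of NK cells. The intervals of tumour cells (7.09% to 14%), T cells (3.62% to 12.4%) and NK cells (0.947% to 12.7%) overlapped, so below macrophages no order can be read. At 37C alone the share was 9.21% in tumour cells and 12.5% in T cells. At this equal depth the exact interval of the tumour cell share of Cd74 (5.04% to 11.1%) lay above that of T cells (0.158% to 4.61%). It overlapped that of NK cells (0% to 5.44%).

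Within macrophages, class II RNA was concentrated in few cells. The 5 genes H2-Aa, H2-Ab1, H2-Eb1, H2-DMa and H2-DMb1 gave 1708 UMIs in 109 macrophages, and the 10 cells with most held 1257 of them (73.6%). The same 10 cells held 60.3% of the Cd74 UMIs. In the highest cell, at 37C with inhibitor (library B), 250 of 3502 UMIs (7.14%) were class II. At the other end 43 of 109 macrophages had no class II UMI, and the median was 1. The 10 came from the 4 libraries at 37C. Across the 109 cells, class II and Cd74 per UMI had a Spearman correlation of 0.77, a description over cells that share libraries and depth.

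The highest cells were not those richest in macrophage markers. Macrophages with a UMI of C1qa, C1qb or C1qc, the complement chains typical of tissue macrophages, numbered 41 and had class II at 47.8 UMIs per 10000 (42.5 to 53.6). The 68 without one had class II at 162 (154 to 171), but 9 of the 10 highest cells were among them with 1143 of their 1414 UMIs, and the other 59 had 42.2 (37.3 to 47.5). The 40 cells with C1q outside the 10 highest had 30.1 (25.9 to 34.9). The share of cells with a class II UMI was 63.4% with C1q and 58.8% without. Cd74 was 20.3 per 10000 in the first set and 45 in the second. Of the 10 highest cells 1 had a C1q UMI, and their macrophage marker UMIs ranged from 2 to 71. The tenth place is a tie of 2 cells with 47 class II UMIs each, and the one not counted had a C1q UMI. The dendritic-cell list summed to 44 UMIs over all macrophages, 25 of them Cd209a, with Itgax at 7, Batf3 at 6 and Flt3 at 3. Fscn1 was at 2, and Clec9a, Ccr7 and Siglech were at 0. Xcr1 was not among the genes of the library tables. Without Fscn1 and Siglech, the cell ranked first by class II held 4 UMIs of this list, the second 4, the eighth 15 and the ninth 1. The others of the 10 held 0, and the twelfth cell held 6. The eighth and twelfth cells had 2 and 1 macrophage marker UMIs. At the low end, 8 annotated macrophages held 5 or more UMIs of mast-cell and basophil genes, led over all macrophages by Cpa3 with 344 UMIs. These 8 had no Cd74 UMI and class II at 1.51 per 10000 (0.183 to 5.46). The annotated class therefore spans cells with and without class II, and what part other cell types have in it was not tested.

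**Figure D2:**
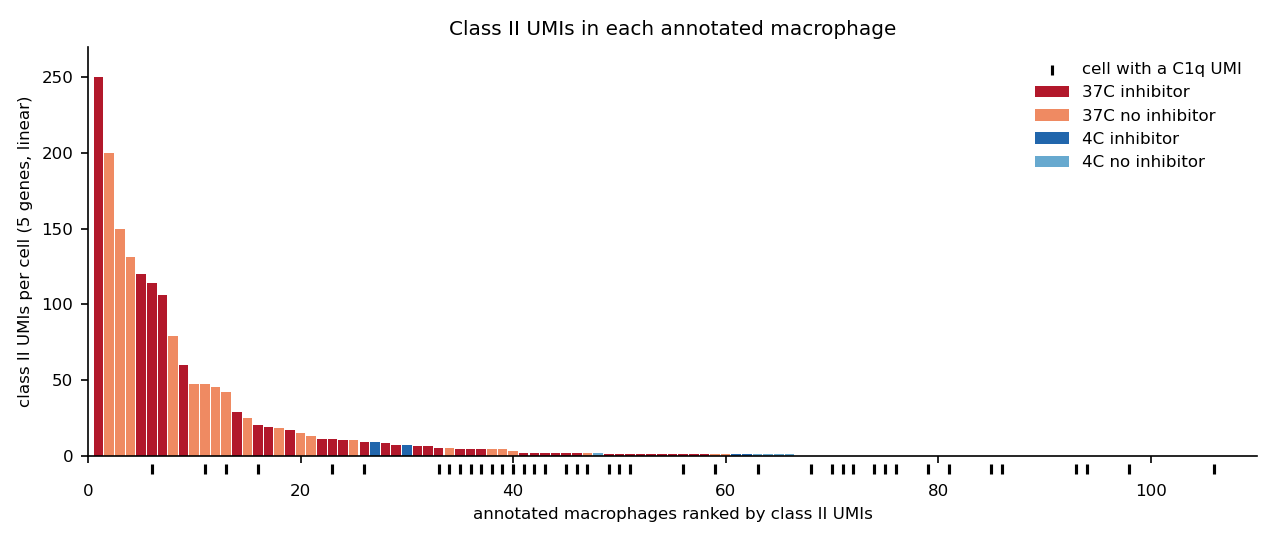
Class II UMIs per cell (5 genes, linear axis) in the 109 annotated macrophages, ranked from highest to lowest and coloured by group, with ticks under the axis at cells with a C1q UMI. The first 10 bars hold 73.6% of the UMIs, and 1 of them has a tick.

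Tumour cells carried a low level of every member but Ciita. The Cd74 level in tumour cells was 4.83 and 3.00 UMIs per 10000 at 37C with inhibitor, 2.63 and 1.51 at 37C without it, 12 and 6.80 at 4C with inhibitor, and 2.99 and 4.85 at 4C without it. It was above 0 in all 8 libraries. The 10 tumour cells with most class II held 33.6% of the class II UMIs, against 73.6% in macrophages, and the highest single tumour cell held 22. Cd74 was found in 90 of 325 tumour cells.

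Free RNA from 1 source keeps its genes in 1 ratio in every droplet of a sample, so class II counts were set against the macrophage markers counted in the same cells. Low-count barcodes had Cd74 at 6.58 UMIs per 10000 and the macrophage marker list at 71.5. Their Cd74 was 9.31 and 10.4 at 37C with inhibitor, 6.37 and 4.92 at 37C without it, 2.51 and 3.08 at 4C with inhibitor, and 3.46 and 4.15 at 4C without it. Tumour cells held 120 macrophage marker UMIs, and at the low-count ratio these would come with 11 Cd74 UMIs, whereas 207 were counted. The same reckoning gave 12.7 for H2-Aa against 83 counted, 12.6 for H2-Ab1 against 95, and 7.79 for H2-Eb1 against 65. It gave 3.34 for H2-DMa against 73 counted and 1.69 for H2-DMb1 against 20. With the ratio taken from annotated macrophages in place of low-count barcodes, Cd74 came to 15.2 UMIs and H2-Aa to 16.3. The libraries differed in this. In 37C no inhibitor B the macrophage ratio gave 5.06 UMIs for H2-Aa against 4 counted, 4.42 for H2-Ab1 against 6 and 2.55 for H2-Eb1 against 4, so the chains were close to the ratio there. Cd74 in the same library came to 3.13 against 17 counted. The other ratios were pooled over libraries, whose low-count marker level ran from 7.95 to 136 UMIs per 10000. Single macrophages did not share 1 ratio either. The cell ranked first by class II held 250 class II and 9 marker UMIs, and the sixth 114 and 64. The part of free RNA in the tumour cell counts was not tested.

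Tumour cells without any macrophage marker UMI were examined next. These 256 cells had Cd74 at 3.77 UMIs per 10000 (3.20 to 4.41), and the 69 tumour cells with a macrophage marker UMI had it at 3.02 (2.25 to 3.97). For the 5 class II genes together the levels were 5.97 (5.25 to 6.77) without a marker and 5.27 (4.23 to 6.49) with one. The markers stood at 2.06 UMIs per 10000 in tumour cells, whose median depth was 1359 UMIs. Many would hold no marker UMI by counting alone, so the split cannot sort cells by free macrophage RNA. The sets also differed in depth, with 413582 UMIs in the 256 cells and 168807 in the 69. In T cells, with 25 macrophage marker UMIs, the low-count ratio gave 2.3 Cd74 UMIs against 12 counted, of which 6 came from the 3 cells with an Ms4a1 UMI. NK cells had 14 marker UMIs, which gave 1.29 against 2.

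The balance of Cd74 to chains also differed between tumour cells and macrophages. Per 100 UMIs of H2-Aa, H2-Ab1 and H2-Eb1 together, Cd74 had 85.2 in tumour cells, 90.5 in large barcodes, 33.9 in macrophages and 33.3 in low-count barcodes. Over the libraries at 37C, Cd74 made up 43.6% of the Cd74 and chain UMIs of tumour cells (38.1% to 49.1%) and 24.8% of those of macrophages (22.9% to 26.7%). In each of these 4 libraries the ratio was higher in tumour cells. With inhibitor it was 74.0 and 60.0 per 100 chain UMIs in tumour cells and 45.8 and 34.5 in macrophages. Without inhibitor it was 128 and 121 in tumour cells and 26.7 and 26.0 in macrophages. At 4C tumour cells had Cd74 at 52.4% (43.3% to 61.5%) and macrophages at 55.3% (38.3% to 71.4%, from 21 Cd74 and 17 chain UMIs), so the difference seen at 37C did not appear there. H2-DMa followed the same direction at 37C, at 28.3 per 100 chain UMIs in tumour cells and 6.9 in macrophages (30.0 and 7.21 over all libraries). At 4C H2-DMa was at 35.6 in tumour cells and 35.3 in macrophages, from 21 and 6 H2-DMa UMIs, so its difference did not appear there either.

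**Figure D3:**
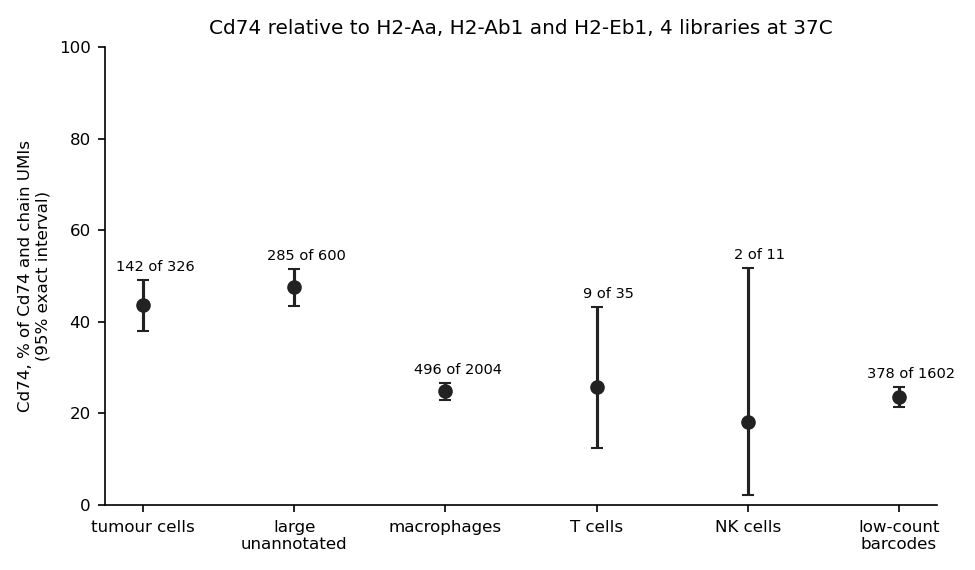
Cd74 UMIs as a percentage of Cd74 plus H2-Aa, H2-Ab1 and H2-Eb1 UMIs in the 4 libraries at 37C (points, with 95% exact intervals and the counts), by class. Tumour cells (43.6%) and large barcodes (47.5%) lie above macrophages (24.8%) and low-count barcodes (23.6%).

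Between temperatures, class II was higher at 37C in the sum of all annotated cells. The sums were fitted with edgeR's quasi-likelihood test over 3391 genes and 4 groups, and a gene with a Benjamini-Hochberg adjusted p under 0.05 was called. Averaged over inhibitor, 5 of the 6 members tested were called higher at 37C, against 2.74% of all genes tested, and Ciita was too low to test. The members' median log2 fold change was 2.20, against 0.04 over all genes. In 4 members every library at 37C was above every one at 4C, against 6.28% of genes.

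H2-Aa, the I-A alpha chain, had 809 and 1174 CPM (TMM-normalised UMI counts) at 37C with inhibitor and 1150 and 1345 at 37C without it, against 100 and 137 at 4C with inhibitor and 46.5 and 315 at 4C without it. It was higher at 37C by 2.86 ± 0.36 on the log2 scale (SE, 4 libraries against 4, adjusted p = 3.67e-05). All 4 libraries at 37C lay above the highest at 4C. H2-Ab1, its beta chain, had 1167 and 1174 CPM at 37C with inhibitor and 1333 and 1199 without it, against 502 and 82.5 at 4C with inhibitor and 209 and 256 without it (log2 difference 2.33 ± 0.32, adjusted p = 9.39e-05). H2-Eb1 had a log2 difference of 2.07 ± 0.34 (adjusted p = 0.000834) and H2-DMb1 one of 2.93 ± 0.62 (0.00819), the second not called with DESeq2 (adjusted p = 0.0971, lowest over the alternatives 0.000226). Neither overlapped between temperatures, H2-DMb1 having 120 to 209 CPM at 37C and 0 to 50.2 at 4C.

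Cd74 and H2-DMa differed less. Cd74 had 1395 and 1167 CPM at 37C with inhibitor and 1022 and 976 without it, against 1406 and 742 at 4C with inhibitor and 232 and 472 without it. The library 4C with inhibitor A was as high as the highest at 37C, so the temperatures overlapped. Its log2 difference was 0.89 ± 0.25 (adjusted p = 0.0490), and over the alternatives the adjusted p ran between 0.000152 and 0.198. It was not called with DESeq2 (0.0914) or with the aliquots summed (0.105). It was also not called without 37C inhibitor A (0.0544), 37C no inhibitor A (0.0591), 37C no inhibitor B (0.0778) or 4C inhibitor B (0.131). H2-DMa had 298 to 391 CPM at 37C with inhibitor, 161 to 247 at 37C without it and 163 to 301 at 4C, with a log2 difference of 0.24 ± 0.31 (adjusted p = 0.781).

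The sums at 37C also held more macrophages, and in such sums fewer cells of a type and less RNA per cell cannot be told apart. Macrophage number and H2-Aa are given side by side within each temperature, and the part of macrophage number was not tested. Among the 37C libraries, 37C inhibitor A had the most macrophages (33), the lowest H2-Aa (809 CPM) and the highest Cd74 (1395 CPM). At 4C without inhibitor, H2-Aa was at 46.5 CPM in library A with 8 macrophages and 315 in library B with 3. Of the 16 H2-Aa UMIs of that library B, 15 were in tumour cells and 0 in macrophages. At 4C with inhibitor, H2-Aa was at 100 CPM in library A with 1 macrophage and 137 in library B with 5. Macrophages supplied 87.8% of H2-Aa UMIs (85% to 90.3%) and 76.4% of Cd74 UMIs (73% to 79.6%) of annotated cells at 37C. At 4C they supplied 20% of H2-Aa (6.83% to 40.7%) and 23.6% of Cd74 (15.2% to 33.8%), and tumour cells 76% of H2-Aa and 73% of Cd74. The macrophage marker list stood at 21.0 to 98.9 UMIs per 10000 in the annotated cells of the 37C libraries and at 4.51 to 19.9 in those at 4C. With macrophages left out, 0 of the 5 members then tested were called (edgeR, 2 at an unadjusted p under 0.05, both lower, against 16.0% of genes in either direction), while 3.30% of genes were. Without macrophages the log2 difference was 0.41 ± 0.54 for H2-Aa and 0.08 ± 0.42 for H2-Ab1. It was -0.70 ± 0.28 for Cd74, -0.85 ± 0.47 for H2-Eb1 and -0.83 ± 0.41 for H2-DMa. Within macrophages, with no test because 4C held 17 of them, H2-Aa was at 39.9 UMIs per 10000 at 37C and 4.49 at 4C, and Cd74 at 36.1 and 18.9. Markers of other cells were high in some of these 4C macrophages. Monocyte markers were at 165 and 181 UMIs per 10000 at 4C with inhibitor and 25.6 and 81.1 at 4C without it, against 26.6 to 36.9 at 37C. Mast-cell and basophil markers reached 263 in 4C no inhibitor A, against 0.578 to 58.2 at 37C. Neutrophil markers reached 420 in 4C no inhibitor B, above the macrophage markers of that library at 258, against 0.371 to 1.44 at 37C. Their part in the difference was not tested.

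In tumour cells alone the direction for Cd74 was the opposite. Of 5 members tested among 1756 genes, Cd74 was called lower at 37C, against 0.513% of genes called lower. Its CPM was 687 and 427 at 37C with inhibitor and 381 and 220 at 37C without it, against 1630 and 954 at 4C with inhibitor and 437 and 721 at 4C without it. The log2 difference was -1.10 ± 0.30 (adjusted p = 0.0359), and the temperatures overlapped. The other 4 members had negative differences too, where 51.7% of genes had positive ones, the nearest being H2-Eb1 at -1.13 ± 0.52 (adjusted p = 0.320). H2-Aa, at -0.45, turned to 1.03 without 4C no inhibitor B, and in the libraries with inhibitor alone H2-Aa was at 1.44 ± 0.85 and H2-Ab1 at 0.82 ± 0.74. The 4C sums rest on 9 to 22 Cd74 UMIs per library. The Cd74 call was lost with DESeq2, without the filter on low counts and after thinning, and without 37C inhibitor B (-0.90), 37C no inhibitor B (-0.90), 4C inhibitor A (-0.79) or 4C no inhibitor B (-0.68), the adjusted p running between 0.0132 and 0.489 over the alternatives.

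**Figure D4:**
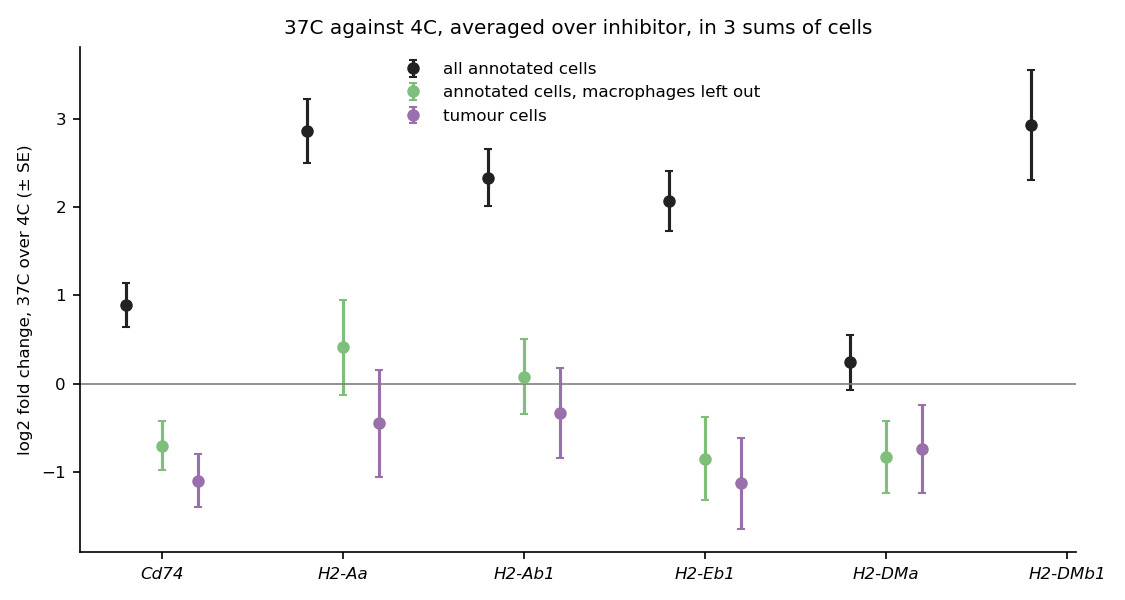
Log2 fold change of 37C over 4C, averaged over inhibitor (points, with standard errors), for 6 members in all annotated cells, in annotated cells without macrophages and in tumour cells. H2-Aa is at 2.86 in all annotated cells and 0.41 without macrophages, and Cd74 is below 0 without macrophages and in tumour cells (H2-DMb1 was tested in all annotated cells only).

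Split by inhibitor, the chains were higher at 37C both with and without it in the sums with macrophages. Without inhibitor, H2-Aa (2.72 ± 0.46, adjusted p = 0.00426), H2-Ab1 (2.43 ± 0.43, 0.00428) and H2-Eb1 (2.54 ± 0.48, 0.00767) were called higher at 37C, 3 of 6 members against 0.973% of genes. Cd74 was at 1.48 ± 0.37 (adjusted p = 0.0507) and was called in 11 of 15 alternatives (0.000404 to 0.677). H2-Eb1 was not called after thinning (0.198). With inhibitor, H2-Aa (2.99 ± 0.56, adjusted p = 0.00544) and H2-Ab1 (2.24 ± 0.47, 0.0126) were called, 2 of 6 members against 1.00% of genes. Cd74 was at 0.31 ± 0.35 (adjusted p = 0.766) and H2-Eb1 at 1.6 ± 0.48 (0.0996). Without the library 4C inhibitor B neither chain passed (adjusted p = 0.0687 for H2-Aa and 0.264 for H2-Ab1). Without either 4C library that had no inhibitor, H2-Eb1 was called (0.00214 without A and 0.0029 without B). With macrophages left out, 0 members were called in either split. Without inhibitor the log2 differences were then -1.19 for H2-Aa, -0.80 for H2-Ab1 and -1.27 for H2-Eb1, and with inhibitor 2.01, 0.95 and -0.43. The difference of the temperature effects was tested as an interaction and called 0 of 6 members and 0% of genes (edgeR, 1 member at an unadjusted p under 0.05 against 7.37% of genes, 0 with DESeq2), with Cd74 at -1.17 ± 0.51 (adjusted p = 0.598).

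Other genes of the pathway were read from a list of 30, of which 29 were in the tables and 13 were tested in annotated cells. At 37C 4 of these 13 were higher and 1 was lower, against 2.74% and 1.24% of genes. The higher ones were proteases and a reductase of the endosome. Ctss, cathepsin S, which cuts the invariant chain, had a log2 difference of 1.88 ± 0.31 (adjusted p = 0.000827). Lgmn, a lysosomal endopeptidase, had 1.63 ± 0.36 (0.0104), Ctsb, cathepsin B, 1.12 ± 0.23 (0.00687), and Ifi30, the lysosomal thiol reductase GILT, 1.81 ± 0.45 (0.0233). The lower one was Ifngr1, a chain of the interferon-gamma receptor, at -1.29 ± 0.33 (0.0273). The kinases Jak1 (-0.58 ± 0.33, adjusted p = 0.403) and Jak2 (0.08 ± 0.31, 0.943) did not pass, nor did Irf1, a transcription factor of the interferon response (-0.64 ± 0.27, 0.220). With macrophages left out, 12 of the list were tested and 1 was called, lower.

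Actinomycin D was compared with its absence at each temperature. In all annotated cells at 37C, 0 of 6 members were called, against 1.21% of genes (edgeR, 1 member at an unadjusted p under 0.05 against 8.43% of genes, 0 with DESeq2). Cd74 was at 0.36 ± 0.31 and H2-Aa at -0.33 ± 0.36 on the log2 scale (adjusted p = 0.897 and 0.938). H2-DMa, the member under an unadjusted p of 0.05, was at 0.75 ± 0.33 (adjusted p = 0.491). Lgmn was the 1 pathway gene called of 13, higher with inhibitor by 1.37 ± 0.33 (adjusted p = 0.0437), against 0.147% of genes called higher. These sums held 33 and 24 macrophages with inhibitor against 18 and 17 without it, and the macrophage marker list was at 98.9 and 54.7 UMIs per 10000 with inhibitor against 41.6 and 21 without it. Within macrophages Lgmn was at 0.61 ± 0.35 (adjusted p = 0.627). The part of macrophage numbers in the call was not tested. At 4C, 0 of 6 members and 0% of genes were called (edgeR, 1 member at an unadjusted p under 0.05 against 5.07% of genes, 0 with DESeq2). Cd74 was the member nearest to the threshold there, with 1406 and 742 CPM with inhibitor against 232 and 472 without it (1.53 ± 0.40, adjusted p = 0.828), and it was called without 4C no inhibitor B (0.0278).

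At 37C the 6 members tested in macrophages had negative differences and the 5 tested in tumour cells positive ones. In macrophages all 6 members had negative log2 differences, where 46.6% of genes had positive ones, though H2-DMa turned positive without the filter on low counts, after thinning and without either of the libraries A. By TMM-normalised CPM, in 5 of them both libraries with inhibitor lay below both without it, against 20.4% of genes. In UMIs per 10000, which are not TMM-normalised, Cd74 and H2-DMb1 overlapped between the groups. The members were counted largely in the same few cells, 10 macrophages holding 73.6% of the class II UMIs, so these 5 are not independent. None of the 6 was called among 582 genes (edgeR, 2 at an unadjusted p under 0.05 against 9.79% of genes, 0 with DESeq2), where 0% of genes were. H2-Ab1 had 27.1 and 42.2 UMIs per 10000 with inhibitor against 56.4 and 68.3 without it (-0.96 ± 0.33, adjusted p = 0.384). H2-Aa was at -1.19 ± 0.48 (adjusted p = 0.509) and H2-DMa at -0.05 ± 0.33. The macrophage marker list was at 353 and 289 UMIs per 10000 with inhibitor, against 239 and 155 without it, and its part in the result was not tested. Without the library 37C no inhibitor A, H2-Aa (-1.45, adjusted p = 0.000102, range 0.000102 to 0.987 over the alternatives) and H2-Ab1 (-1.06, 0.0116, range 0.0116 to 0.987) were called.

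In tumour cells at 37C all 5 members tested were higher in both libraries with inhibitor than in both without it, against 17.2% of genes. The contrast was added after the values per library were seen. H2-Aa had 277 and 313 CPM with inhibitor against 66.3 and 51.7 without it, from 23 and 33 UMIs against 4 and 4. It was called at 2.30 ± 0.59 (adjusted p = 0.0307), the single gene called higher among 1756, or 0.0569%. H2-Ab1 had 31 and 30 UMIs with inhibitor against 8 and 6 without it (1.65 ± 0.52, adjusted p = 0.151). Cd74 was at 0.90 ± 0.36 (0.601) and H2-DMb1, not tested, had 10 and 7 UMIs with inhibitor against 0 and 1 without it. The H2-Aa call was lost with DESeq2 (adjusted p = 0.932, lowest over the alternatives 0.00516). It was also lost without 37C inhibitor A (2.40), 37C inhibitor B (2.20), 37C no inhibitor A (2.47) or 37C no inhibitor B (2.12). Macrophage markers moved the same way in these tumour cells, at 2.80 and 4.20 UMIs per 10000 with inhibitor (33 and 63 UMIs) against 0.687 and 0.885 without it (6 and 10 UMIs), with 1 and 2 of the 12 genes at 0 with inhibitor and 8 and 7 without it. Their part in the result was not tested.

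Large barcodes gave the same order for the members. All 6 members were higher in both libraries with inhibitor, against 17.8% of genes, and macrophage markers overlapped between the groups, at 1.77 and 0.685 UMIs per 10000 with inhibitor and 1.92 and 0.740 without it. Cd74 had 3.65 and 4.32 UMIs per 10000 with inhibitor against 2.61 and 2.45 without it (0.66 ± 0.24, adjusted p = 0.496). H2-Aa had 2.11 and 1.53 with inhibitor against 0.768 and 0.911 without it (1.15 ± 0.34, 0.297). H2-DMb1 had 30 and 14 UMIs with inhibitor against 1 and 4 without it, a log2 difference of 2.30 ± 0.60 (0.198). None of the 6 was called, against 0.674% of 4008 genes (edgeR, 4 members at an unadjusted p under 0.05 against 7.39% of genes, 0 with DESeq2). H2-Aa was called without 37C inhibitor B (1.37, adjusted p = 0.0124, range 0.0124 to 1 over the alternatives). Lists of other cell types moved with the members in these barcodes. The 5 fibroblast genes were at 6.69 and 4.27 UMIs per 10000 with inhibitor (0 of 5 at 0 in both) against 0.461 and 0.512 without it (3 of 5 at 0 in both). The 11 T-cell genes were at 2.72 and 1.32 with inhibitor (2 and 9 at 0) against 0.0768 and 0.114 without it (10 and 9 at 0). Their part in the result was not tested. This contrast too was added after the values were seen.

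**Figure D5:**
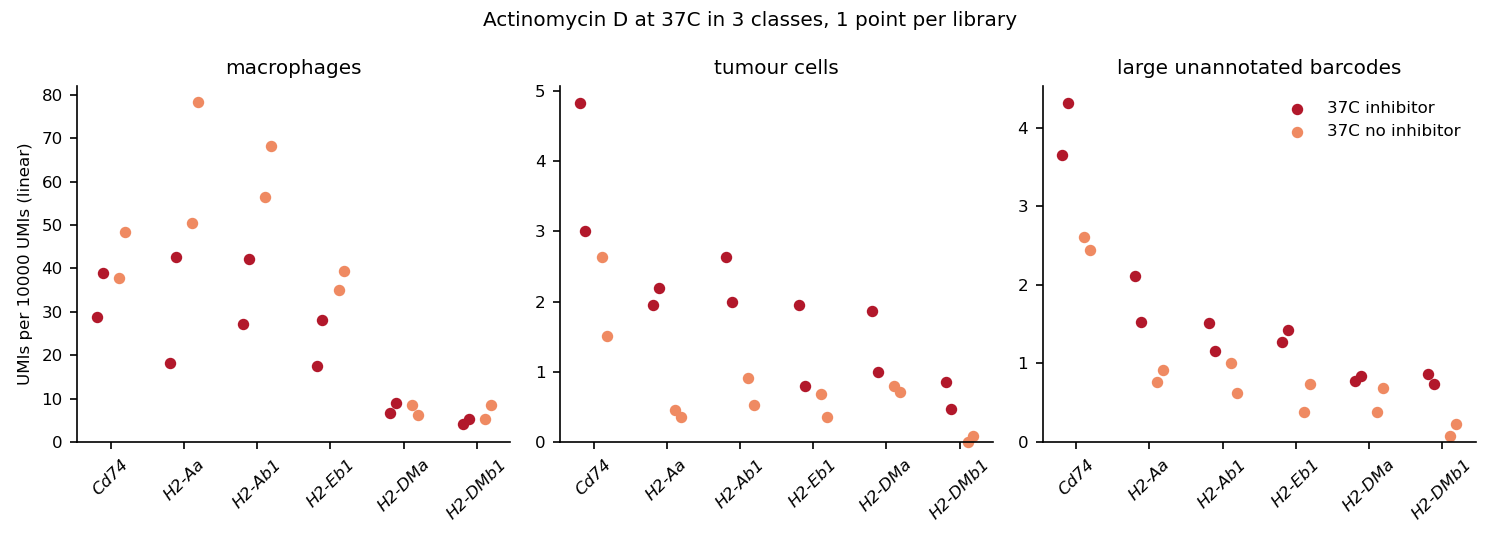
UMIs of 6 members per 10000 UMIs (linear axes that differ between panels) in the libraries at 37C with and without inhibitor, in macrophages, tumour cells and large unannotated barcodes, 1 point per library. For H2-Aa the points with inhibitor lie below those without it in macrophages (18.1 and 42.7 against 50.4 and 78.3) and above them in tumour cells (1.95 and 2.20 against 0.458 and 0.354).

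The genes whose pattern was most like that of Cd74 were ranked by Pearson correlation of log2(CPM + 10) over 23 sums of a library and a cell type, among 3667 genes. The sums share libraries, depth and cell types, so the values are descriptions. Lrp1, an endocytic receptor (r = 0.880), and Pla2g7, a secreted phospholipase (0.879), came first, followed by Arl8a (0.860), Fam129b (0.852), App (0.839) and Fcgrt (0.837). H2-Eb1 was the member most like Cd74, at rank 7 (0.834), and H2-Aa followed at rank 14 (0.810). H2-Ab1, at rank 132 (0.674), was the least like it. Sdc4, Plin2 and Tgm2 filled ranks 8 to 10, and with a pseudocount of 50 CPM 8 of the 10 genes stayed among the first 10.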

How the data were processed

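The deposited library tables hold raw counts of UMIs per gene and barcode, and the authors' expression table of annotated cells holds natural log values, which after the log was undone were proportional to the counts for 598 of 598 member values (tolerance 0.001). Per the submitters' processing notes UMI-tools, STAR 2.7.1a, featureCounts 1.6.0, SAMtools and Seurat were used with GRCm38. The sources used here give no settings, cell filters, doublet handling or way of naming cell types, and no doublet caller was run. Of 17580 identifiers 17520 received a symbol, 12505 with the same version. Counts were summed per library over annotated cells (23212 to 199929 UMIs) and per cell type, then tested with edgeR 4.0.16 under R 4.3.3 (filterByExpr, TMM, glmQLFit and glmQLFTest, two-sided), adjusted over all genes tested, with DESeq2 1.42.0 as an alternative. On simulated data for 37C against 4C averaged over inhibitor, 72% of 200 genes changed by 2 on the log2 scale were recovered among 3391 genes, with 6 false calls. The simulated noise was set in advance and not estimated from these libraries, so these figures hold for that setting only. Intervals are Clopper-Pearson at 95%, and the limits given for Ciita at a count of 0 take 3 counts. Aliquots of a group differed by more than counting noise (chi-square per degree of freedom 1.53 to 2.05). All 7 members were named whatever their call, other pathway genes where called or given a role in the text, and the 10 genes most like Cd74 by a fixed rank. Members and lists were chosen with earlier results of these data known. A result on 1 pathway gene is not reported here.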

Additional observations from a re-analysis of the deposited data

How the results depend on the processing

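Counts of members called for 37C against 4C averaged over inhibitor (5 in the fit reported) were 3 with DESeq2, 0 with macrophages left out and 3 to 5 when single libraries were left out; without inhibitor (3 reported) they were 5 with no filter on low counts, 0 with macrophages left out and 3 to 4 over single libraries left out, and with inhibitor (2 reported) 1 after thinning to the smallest library, 4 over all listed barcodes, 0 with macrophages left out and 0 to 3 over single libraries left out. For inhibitor against none at 4C (0 reported) leaving out single libraries gave 0 to 1. In tumour cells the count for temperature (1 reported) was 0 with DESeq2, 0 with no filter, 0 after thinning and 0 to 1 over single libraries, and the count for inhibitor at 37C (1 reported) was 0 with DESeq2, 0 after thinning and 0 to 1 over single libraries. In macrophages it was 0 to 2 over single libraries left out, and in large barcodes (0 reported) 1 with no filter and 0 to 1 over single libraries. Signs turned with macrophages left out for Cd74 (-0.70), H2-Eb1 (-0.85) and H2-DMa (-0.83) averaged over inhibitor. The same happened without inhibitor for Cd74 (-0.63), H2-Aa (-1.19), H2-Ab1 (-0.80) and H2-Eb1 (-1.27), and with inhibitor for Cd74 (-0.76) and H2-Eb1 (-0.43). H2-Aa in tumour cells averaged over inhibitor turned to 1.03 without 4C no inhibitor replicate B, its range over single libraries left out being -0.60 to 1.03. H2-DMa in macrophages turned to 0.29 with no filter, 0.38 after thinning, and 0.22 and 0.26 without the 37C libraries A with and without inhibitor, its range over single libraries left out being -0.23 to 0.26. Averaged over inhibitor, H2-Aa and H2-Ab1 were called in 15 of 16 alternatives each and Cd74 in 8 of 16. Under a replicate block by aliquot letter the count for 37C against 4C averaged over inhibitor was 5 and that without inhibitor 4, with Cd74 added, and no other member count changed; the letters did not pair the libraries (correlations of same-letter deviations -0.028 to 0.239). Leaving macrophages out of contrasts other than the averaged one was chosen after seeing the data. Causes of these shifts were not tested. Depth limits Ciita and all 4C macrophage values.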
